A study of Homo sapiens with 5 samples.

Results

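The hnRNP genes encode heterogeneous nuclear ribonucleoproteins, abundant nuclear proteins that bind nascent transcripts. The 10 genes described here are HNRNPA1, HNRNPA2B1, HNRNPC, HNRNPD, HNRNPDL, HNRNPH1, HNRNPK, HNRNPL, HNRNPM and HNRNPU. All introns that the deposited tables list under these symbols were taken, which gave 28 distinct introns of 34560 listed in all. HNRNPC, whose protein binds uridine tracts in nascent RNA, had no listed intron, so 9 genes carry the results. HNRNPH1 had 7 introns, HNRNPL 5, HNRNPDL 4, HNRNPA1 and HNRNPU 3 each, HNRNPA2B1 and HNRNPK 2 each, and HNRNPD and HNRNPM 1 each.

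As background, hnRNP proteins coat pre-mRNA as it is made and influence where the spliceosome assembles, often by blocking or favouring a splice site. They also act in mRNA export, stability and translation. Many genes of RNA-binding proteins are themselves spliced in more than one way, and an intron kept in the coding region can bring a stop codon that exposes the mRNA to nonsense-mediated decay.

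Intron retention was read from polyA RNA of DLD-1, a cell line from a human colorectal adenocarcinoma, in 5 libraries with 1 library per group. DLD-1 LacZeo cells received 100 nM siRNA for 72 h against WBP11, a splicing factor, or against SNW1, a component of the activated spliceosome, and an untreated control library of the same cells, which the file headers call a control RNAi, was shared by both. In the second system, DLD-1 LacZeo osTIR1 cells received 500 µM auxin for 48 h, in 1 library as WBP11 degron cells and in 1 library as the control. The degron cells carried an AID-tagged WBP11 transgene in place of the knocked-out endogenous gene, per the series' design text, and osTIR1 is the plant receptor through which auxin marks the tag for degradation. The labels give both auxin libraries the same genotype, and whether the lines were single clones was not stated.

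The retention ratio, used as the authors deposited it, relates the depth of reads over an intron to that depth plus the spliced reads at its ends, given here in percent. Rebuilt from the deposited depth and spliced reads, it differed from the deposited ratio by more than 0.1 points at 5 hnRNP introns, by up to 2.15 points at HNRNPA2B1 intron 10 and by at most 0.713 points at the others. Intervals are 95% intervals that cover counting error within these libraries only, and no difference has a replicate check. An intron is said to have risen or fallen only where the 2 ratios were at least 10 percentage points apart, with a depth plus spliced reads of at least 10 in both libraries. Every hnRNP intron passed that depth minimum. Every listed intron reached at least 1% in at least 1 of its 2 libraries, and was free of a warning in at least 1 of them. An intron missing from a table thus cannot be read as fully spliced or as unmeasured.

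The listed introns held 2944601 exactly spliced reads in the WBP11 siRNA library against 3115887 in its control, 4119928 after SNW1 siRNA against 5484823, and 4828394 in the WBP11 degron library against 4235730 in its control. WBP11 kept 6.78% of its spliced reads after WBP11 siRNA (4.09 to 10.7) and SNW1 kept 10.3% after SNW1 siRNA (6.90 to 14.8), both relative to all listed introns. The WBP11 degron library stood at 37.6% of its control at the only listed WBP11 intron, which does not measure the tagged protein. Of 8 epithelial marker genes, 3, 4 and 4 had listed introns in the WBP11 siRNA, SNW1 siRNA and auxin tables, with KRT18, a keratin of simple epithelia, in each. None of 6 markers of fibroblasts, immune cells and endothelium had one.

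The sequences below belong to the introns on which the results turn. They are the shortest intron of HNRNPH1, its intron 2, the alternative segment of HNRNPM, intron 7 of HNRNPL and a short intron of HNRNPH3, a smaller relative of HNRNPH1. They are printed 5′ to 3′ on the strand of the gene, with stop codons in the reading frame of the upstream exon in capitals. They were read from GENCODE release 29 transcripts that keep the intron within an exon, in build hg38 (GRCh38).
HNRNPH1 intron 6, 56 bases, chr5:179617933-179617988, minus strand: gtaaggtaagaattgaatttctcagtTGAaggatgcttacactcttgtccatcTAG
HNRNPH1 intron 2, 206 bases, chr5:179621036-179621241, minus strand: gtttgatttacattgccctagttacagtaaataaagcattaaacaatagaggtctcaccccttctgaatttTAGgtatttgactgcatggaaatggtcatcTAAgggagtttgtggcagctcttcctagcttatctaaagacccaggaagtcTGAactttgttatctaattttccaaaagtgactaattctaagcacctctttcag
HNRNPM intron 6, 117 bases, chr19:8465363-8465479, plus strand: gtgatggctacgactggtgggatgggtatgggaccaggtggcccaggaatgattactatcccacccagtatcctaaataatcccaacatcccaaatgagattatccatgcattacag
HNRNPL intron 7, 111 bases, chr19:38840377-38840487, minus strand: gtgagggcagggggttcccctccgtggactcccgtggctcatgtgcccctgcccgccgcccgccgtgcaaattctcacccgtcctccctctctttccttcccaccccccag
HNRNPH3 intron 8, 78 bases, chr10:68341681-68341758, plus strand: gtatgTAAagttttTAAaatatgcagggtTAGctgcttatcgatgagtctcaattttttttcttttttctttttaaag

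The 56-base HNRNPH1 intron holds 2 stop codons in frame, HNRNPH1 intron 2 holds 3, and the HNRNPH3 intron holds 3. The HNRNPM segment holds none and is 39 codons long, and the HNRNPL intron holds none and is 37 codons long. The base composition also differed, with 37.5% G and C in the 56-base HNRNPH1 intron, 26.9% in the HNRNPH3 intron and 69.4% in the HNRNPL intron.

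Across the group, few hnRNP introns rose or fell. After WBP11 siRNA, 1 of 13 hnRNP introns rose and 0 fell, against 9.07% higher and 1.69% lower among the 16068 introns tested in that table. After SNW1 siRNA, 2 of 23 rose and 0 fell, against 16.6% higher and 0.359% lower among 23366. In the WBP11 degron library, 1 of 18 rose and 2 fell, against 13.8% higher and 1.37% lower among 21828. The hnRNP shares were 7.69%, 8.70% and 5.56% for rises, and 11.1% for falls in the degron library. The shares of rises were below the background in each table, though near it after WBP11 siRNA, and were counted over few introns. The median intron tested was read far less deeply than the hnRNP introns, and shallow introns pass 10 points by counting error more often. The shares were thus not compared at equal depth. The 2 falls were both at introns that overlap annotated exons. In all, 3 hnRNP introns passed 10 points anywhere, HNRNPH1 intron 6, HNRNPA1 intron 10 and HNRNPM intron 6.

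**Figure D1:**
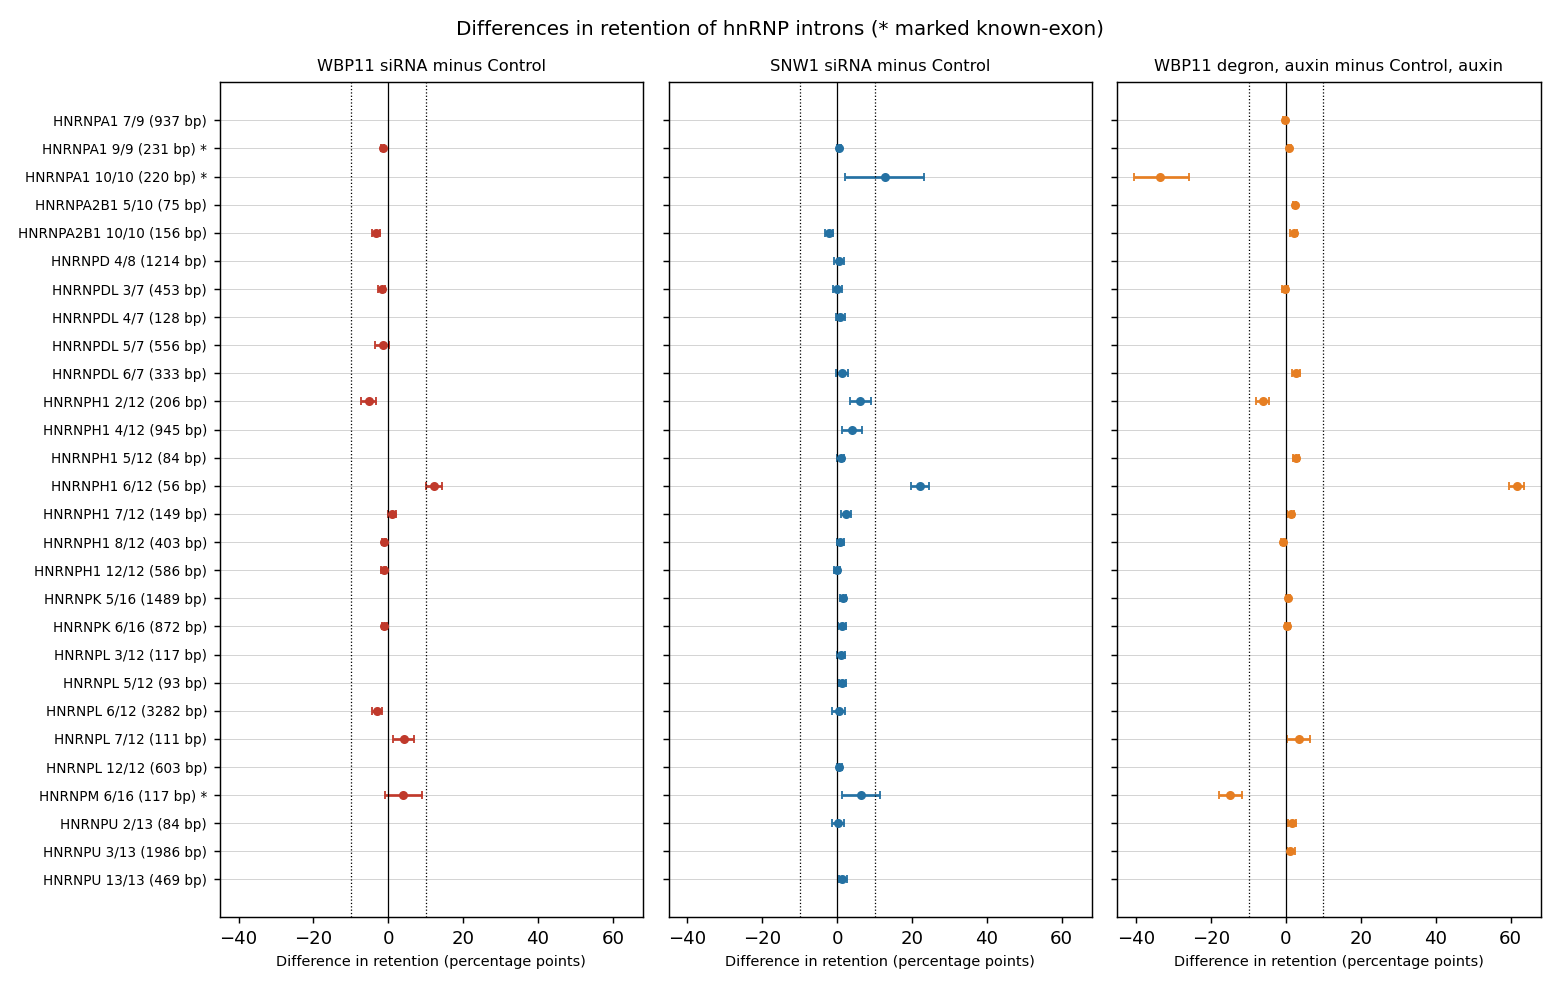
Each point is the difference in retention of 1 hnRNP intron, in percentage points, with its 95% counting interval, in WBP11 siRNA minus control, SNW1 siRNA minus control and WBP11 degron minus control under auxin; dotted lines mark 10 points and an empty row is an intron not listed. The 56-base HNRNPH1 intron is the point furthest right in every panel, and HNRNPA1 intron 10 and HNRNPM intron 6 lie left of the dotted line only in the auxin panel.

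Smaller differences leaned one way or the other by treatment, but the listing rule fixed part of these directions. An intron below 1% in 1 library was listed only where the other reached 1%. After WBP11 siRNA this held for HNRNPA1 intron 9, HNRNPDL intron 3, HNRNPH1 introns 8 and 12 and HNRNPK intron 6, all lower. It also held for HNRNPH1 intron 7, which was higher. After SNW1 siRNA it held for HNRNPD intron 4, HNRNPH1 introns 5 and 7 and HNRNPU introns 2 and 13, all higher. The same was true of HNRNPL introns 3, 5 and 12. In the auxin pair it held for HNRNPA1 intron 7, HNRNPDL intron 3 and HNRNPH1 intron 8, all lower in the degron library. There it also held for HNRNPA2B1 intron 5, HNRNPK intron 5 and HNRNPU intron 2, all higher. After WBP11 siRNA, 4 hnRNP introns had a higher ratio than the control and 9 a lower one, and the median difference was -1.19 points, against 0.76 over all introns tested, 59.6% of which were above 0. Over the 6 introns without a warning the WBP11 siRNA median was -0.0405 points. After SNW1 siRNA, 21 were above the control and 2 below, a share of 91.3%, the same to this precision as among all introns, and the median was 0.97 points against 2.63. Over the 8 introns without a warning the SNW1 siRNA median was 1.87 points. In the degron library 12 were above and 6 below, with a median of 1.08 points against 1.45 over all introns. Without HNRNPH1 the 3 medians were -1.52, 0.93 and 0.94 points. The hnRNP introns were deeply read, with a median depth plus spliced reads of 1520, 1135 and 2895 in the 3 depleted libraries against 101, 103 and 125 over all introns, so their intervals are narrow and small differences stand out from counting error more often.

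Short and long hnRNP introns were counted apart. Up to 100 bases, 1 of 1, 4 of 4 and 4 of 4 hnRNP introns had a higher ratio in the WBP11 siRNA, SNW1 siRNA and WBP11 degron libraries. Over 100 bases, 3 of 12, 17 of 19 and 8 of 14 did. Among all introns tested, those up to 100 bases were above the control in 66.9%, 91.9% and 86.6%, and the longer ones in 58.3%, 91.2% and 70.0%. There are only 5 hnRNP introns up to 100 bases, of HNRNPH1, HNRNPA2B1, HNRNPL and HNRNPU, so the split within the group is a description. The listing rule also fixed the direction of those that were below 1% in the control. These were HNRNPH1 intron 5, HNRNPL intron 5 and HNRNPU intron 2 after SNW1 siRNA. In the auxin pair they were HNRNPA2B1 intron 5 and HNRNPU intron 2. Directions of the longer introns named above were fixed likewise, so the counts over 100 bases carry the same limit. After SNW1 siRNA both length classes were mostly above the control, and after WBP11 siRNA a single short intron was listed.

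HNRNPH1 encodes hnRNP H1, which binds runs of G in RNA and can promote or block exon inclusion. Its gene (ENSG00000169045.16, chromosome 5, minus strand) holds the intron that differed most in this group, intron 6 of 12, which lies in the coding region. At 56 bases it was also the shortest of all 34560 listed introns, whose median length was 568 bases, and the only one of up to 60 bases. The tables mark it as clean, that is free of annotated exons, although GENCODE release 29 lists a transcript of the retained-intron class that keeps it.

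Retention of this intron was 15.6% in the WBP11 siRNA library (13.8 to 17.5), 25.6% in the SNW1 siRNA library (23.4 to 27.9) and 3.38% in their control (2.54 to 4.47). It was 66.4% in the WBP11 degron library (64.7 to 68.1), against 4.73% in the auxin control (3.86 to 5.78). All 3 depleted libraries lay above both controls, and none of the intervals of depleted and control libraries overlapped. The differences were 12.2 points for WBP11 siRNA (10.2 to 14.3), 22.2 points for SNW1 siRNA (19.8 to 24.7) and 61.7 points for the WBP11 degron (59.7 to 63.6). By size they ranked 1168 of 16068, 1252 of 23366 and 68 of 21828 introns, counted from the largest rise.

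The rise in the WBP11 degron pair exceeded that in the WBP11 siRNA pair by 49.5 points (46.6 to 52.3), each set against its own control. The 2 control libraries themselves differed at this intron by 1.35 points, auxin control minus control (-0.04 to 2.69). Cell line, agent and time all differ between the 2 systems and cannot be told apart. No warning was attached to this intron in any library, and every measured base of it was covered in all 5.

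The reads at the intron moved in both parts of the ratio. The deposited depth of the intron was 1983 in the WBP11 degron library against 89.8 in its control. It was 237 and 373 after WBP11 and SNW1 siRNA against 46.5. Exactly spliced reads were 995 in the degron library against 1803, and 1271 and 1071 after WBP11 and SNW1 siRNA against 1326. The degron library had fewer spliced reads there although it held more spliced reads in all listed introns than its control.

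Spliced reads of the neighbouring introns give a scale within the same transcript. In the degron library the 56-base intron had 33.6% of the spliced reads of intron 5, the 84-base intron on its 5′ side (31.3 to 36.1), against 80.8% in the auxin control (75.9 to 86.0). Relative to intron 7, of 149 bases on its 3′ side, it had 40.8% in the degron library (37.9 to 44.0), against 137% in the auxin control (128 to 148). After SNW1 siRNA it had 77.4% of intron 5 (71.4 to 83.9), against 91.8% in the control (85.2 to 99.0), and 118% of intron 7 (108 to 129), against 145% (133 to 158). After WBP11 siRNA only intron 7 was listed, and the value was 106% (97.9 to 115), against 145% in the control. The depleted libraries were thus each below their control on this measure, which does not use the intron's depth, and the degron library was lowest.

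**Figure D2:**
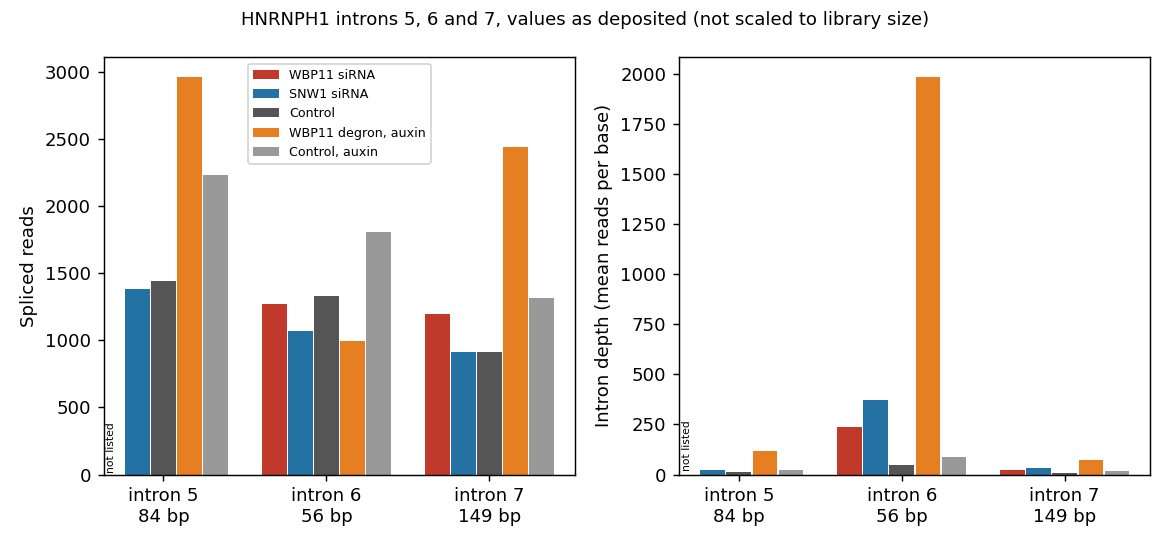
Bars give the exactly spliced reads (left) and the intron depth (right) of HNRNPH1 introns 5, 6 and 7 in each library. Values are as deposited and not scaled to library size. The axis calls the depth a mean per base, but how it was averaged was not checked. Intron 5 is not listed for WBP11 siRNA. At intron 6 the WBP11 degron library combines the highest depth, 1983, with the fewest spliced reads, 995, while at introns 5 and 7 it has the most spliced reads.

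The introns beside it stayed near the control. Intron 5 was at 3.84% in the degron library against 1.10% (2.74 points, 1.93 to 3.55), and at 1.71% after SNW1 siRNA against 0.795% (0.92 points, 0.09 to 1.81). Intron 7 was at 2.87% in the degron library against 1.50% (1.37 points, 0.37 to 2.27). It was at 1.89% after WBP11 siRNA (0.98 points, -0.07 to 2.01) and 3.23% after SNW1 siRNA (2.32 points, 1.05 to 3.73), against 0.909%. Introns 8 and 12, of 403 and 586 bases, were between 0.194% and 2.24% in every library that lists them. Of the 5 HNRNPH1 introns listed for the degron library, intron 6 was thus the 1 that rose.

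HNRNPH1 intron 2, of 206 bases and in the coding region, moved in opposite directions without passing 10 points. Retention was 4.39% after WBP11 siRNA (3.47 to 5.54) and 15.9% after SNW1 siRNA (13.8 to 18.1), against 9.65% in the control (7.997 to 11.6). In the auxin pair it was 2.75% in the WBP11 degron library (2.22 to 3.42), against 8.94% in the control (7.56 to 10.6). Both libraries with less WBP11 lay below their controls, and the SNW1 library lay above. The differences were -5.26 points for WBP11 siRNA (-7.41 to -3.25), 6.21 for SNW1 siRNA (3.39 to 9.02) and -6.19 for the WBP11 degron (-7.89 to -4.65). The 2 WBP11 differences differed from each other by -0.93 points, degron minus siRNA (-3.56 to 1.72), an interval that spans 0. Intron 4, of 945 bases, was listed after SNW1 siRNA only, at 14.2% against 10.3% (3.85 points, 1.19 to 6.53), with a warning of uneven coverage in the control.

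**Figure D3:**
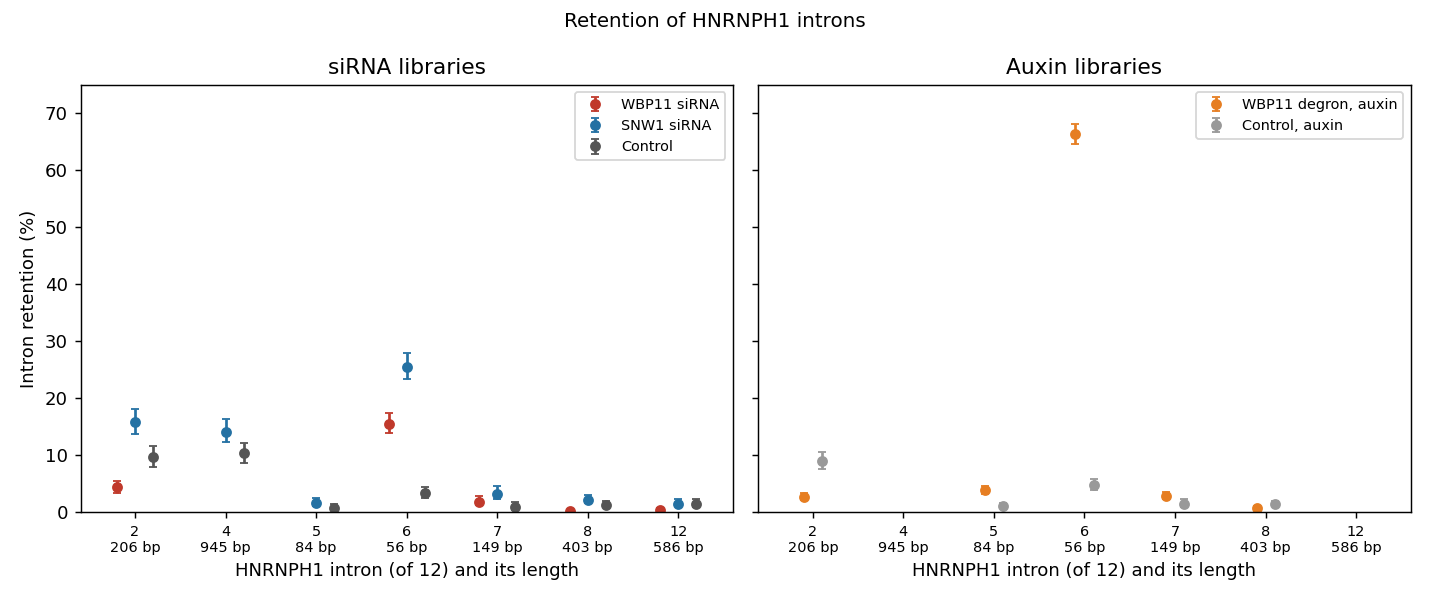
Retention in percent, with 95% counting intervals, of each listed HNRNPH1 intron, in the WBP11 siRNA, SNW1 siRNA and control libraries (left) and in the WBP11 degron and control libraries under auxin (right); an intron without a point in a library is not listed for it. Intron 6 reaches 66.4% in the degron library, while intron 2 lies below its control in both WBP11 panels and above it after SNW1 siRNA.

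HNRNPA1 encodes hnRNP A1, a splicing repressor that shuttles between nucleus and cytoplasm. The gene (ENSG00000135486.16, chromosome 12, plus strand) had 3 listed introns, of which introns 9 and 10 lie in the 3′ UTR and are marked as overlapping an annotated exon. Intron 10, of 220 bases (54286733 to 54286952), is spliced out in a transcript annotated for nonsense-mediated decay and lies within an exon of a protein-coding one. A high ratio there means that few of the transcripts read over this stretch used this splice.

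Intron 10 of HNRNPA1 was at 47.7% after SNW1 siRNA (40.7 to 54.8), against 34.9% in the control (27.4 to 43.1). In the auxin pair it was at 20.5% in the WBP11 degron library (16.9 to 24.7), against 54.0% in the control (47.8 to 60.2). The WBP11 siRNA table does not list it. It rose by 12.9 points after SNW1 siRNA (2.03 to 23.1) and fell by 33.5 points in the degron library (interval -40.7 to -26.0), the 8th largest fall of the 21828 introns tested. The depth was low for this gene, with 99 exactly spliced reads after SNW1 siRNA against 90, and 321 in the degron library against 112. At intron 9 the degron library held 9055 exactly spliced reads and its control 8977. The ratio at intron 10 thus describes a small part of the spliced reads of this gene. IRFinder, the retention caller, warned of uneven coverage in the control and in the degron library. The 2 control libraries already differed by 19.1 points, auxin control minus control (8.77 to 28.8), which is more than the rise after SNW1 siRNA.

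HNRNPA1 intron 9, of 231 bases, was at 0.736% after WBP11 siRNA and 2.79% after SNW1 siRNA, against 2.25% in the control, and at 2.92% in the degron library against 1.99%. Each depleted library carried a warning of uneven coverage there. Intron 7, of 937 bases and coding, was listed in the auxin table only, at 0.818% in the degron library against 1.20%. By gene name, GENCODE holds 75 pseudogenes of HNRNPA1, the most of the 10 genes. Whether reads shared with such copies were counted was not stated, so the levels of this gene are less certain than those of the others.

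HNRNPA2B1 encodes a close relative of hnRNP A1. Its intron 10, of 156 bases in the 3′ UTR (chromosome 7, 26192339 to 26192494, minus strand), was at 3.44% after WBP11 siRNA and 4.50% after SNW1 siRNA, against 6.67% in the control, and at 6.34% in the degron library against 4.30%. Both siRNA libraries were below the control, with differences of -3.23 points after WBP11 siRNA and -2.17 points after SNW1 siRNA, and the degron library was above its control by 2.04 points (1.12 to 3.005). The deposited ratio of this intron is not the one its deposited depth and spliced reads give, which in the auxin pair are 8.49% in the degron library against 4.66%, a difference of 3.83 points. The degron library also carried a warning there of a minor isoform. Intron 5, of 75 bases, was listed under auxin only, at 2.58% in the degron library against 0.269% (2.31 points, 1.98 to 2.67).

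HNRNPM encodes hnRNP M, which binds GU-rich RNA and regulates alternative exons. Its only listed intron (ENSG00000099783.10), intron 6 of 16, is a coding segment that 4 other annotated transcripts keep as part of an exon. The retention ratio there measures the share of transcripts with the longer exon, which has no stop codon in this stretch.

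The longer HNRNPM form made up 43.9% after WBP11 siRNA (40.6 to 47.2) and 46.3% after SNW1 siRNA (43.0 to 49.6), against 39.8% in the control (36.1 to 43.7). In the auxin pair it made up 41.6% in the WBP11 degron library (39.5 to 43.7), against 56.4% in the control (54.1 to 58.8). Neither siRNA library passed 10 points, with differences of 4.04 (-1.002 to 9.03) for WBP11 and 6.46 (1.40 to 11.5) for SNW1. The degron library fell by 14.8 points (interval -18.0 to -11.6). Here too the auxin control lay above the siRNA control, by 16.6 points (12.1 to 21.0), and the degron library minus the WBP11 siRNA library was -2.28 points (-6.20 to 1.61). The part played by the different cells and agents was not tested.

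HNRNPL encodes hnRNP L, which binds CA-rich RNA. Its intron 7, of 111 bases in the coding region, was at 8.81% after WBP11 siRNA (6.99 to 11.1), against 4.74% in the control (3.21 to 6.95), a difference of 4.08 points (1.21 to 6.79). In the auxin pair it was at 18.2% in the degron library (16.3 to 20.4), against 14.8% in the control (12.7 to 17.1), a difference of 3.46 points (0.39 to 6.45). The 2 WBP11 differences were -0.62 points apart, degron minus siRNA (-4.71 to 3.52), an interval that spans 0, while the controls differed by 10.0 points, auxin control minus control (7.005 to 12.9). The table marks this intron as clean, but GENCODE lists 3 transcripts that keep it, protein-coding ones among them. The other HNRNPL introns were between 0.446% and 4.38% in every library that lists them, and intron 6, of 3282 bases, was at 1.10% after WBP11 siRNA against 3.99%.

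**Figure D4:**
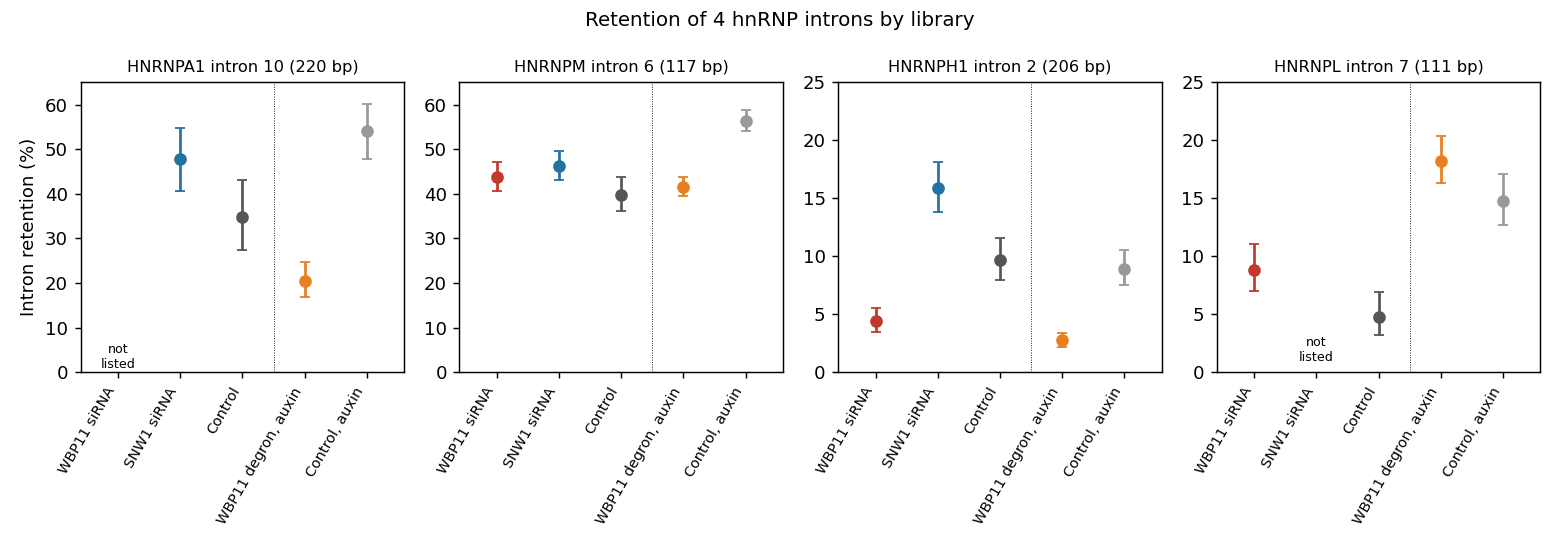
Retention in percent with 95% counting intervals in each library, for HNRNPA1 intron 10, HNRNPM intron 6, HNRNPH1 intron 2 and HNRNPL intron 7; the dotted line separates the siRNA libraries and their control from the auxin pair, and the vertical scales differ. The 2 controls are apart by 19.1, 16.6 and 10.0 points for HNRNPA1, HNRNPM and HNRNPL but lie within each other's interval for HNRNPH1 intron 2, at 8.94% in the auxin control and 9.65% in the siRNA control.

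HNRNPD, also called AUF1 and known for binding AU-rich elements of mRNA, had 1 listed intron, intron 4 of 1214 bases, at 1.28% after SNW1 siRNA against 0.683%. Its relative HNRNPDL had 4, all between 0.199% and 4.37%. The largest difference among them was at intron 6, of 333 bases, with 4.37% in the degron library against 1.69% (2.68 points, 1.60 to 3.86). After WBP11 siRNA, HNRNPDL intron 3 was lower, at 0.199% against 1.77% (-1.57 points, -2.66 to -0.75). It had a depth of 2.32 and a warning of uneven coverage in that library. Intron 5 was at 2.44% against 3.96% (-1.52 points, -3.45 to 0.31), an interval that spans 0.

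HNRNPK encodes a protein with KH domains that binds C-rich RNA and DNA. Its introns 5 and 6 were at 3.32% and 3.22% after SNW1 siRNA against 1.75% and 1.88%, and intron 6 was at 0.818% after WBP11 siRNA against 1.88%. Both introns overlap exons of another annotated gene, AL354733.3, whose reads can enter the intron depth. HNRNPU encodes scaffold attachment factor A, which links RNA and chromatin in the nucleus. Its 3 introns had differences between 0.19 points, at intron 2 after SNW1 siRNA, and 1.49 points, at intron 2 in the degron library (2.01% against 0.520%).

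A comparison of the 2 siRNA libraries needs no control. At all 11 hnRNP introns listed in both RNAi tables, retention was higher after SNW1 siRNA than after WBP11 siRNA, and the interval lay above 0 at 10 of them, HNRNPM being the exception. The median difference, SNW1 siRNA minus WBP11 siRNA, was 2.05 points, and the range ran from 1.06 at HNRNPA2B1 intron 10 to 11.5 at HNRNPH1 intron 2. Among all 12761 introns in both tables, 81.6% were higher after SNW1 siRNA, with a median of 2.69 points. Intervals above 0 were not counted over all introns. The hnRNP introns were read more deeply, so the count of their intervals is not a trait of the group. At HNRNPH1 intron 6 the difference was 10.0 points (7.09 to 12.9).

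Spliced reads give a measure of the amount of spliced hnRNP RNA, set here relative to all listed introns of the same table. After WBP11 siRNA, all 7 hnRNP genes with a listed intron stood above the control, between 123% for HNRNPA2B1 and 159% for HNRNPL, and every interval lay above 100%. After SNW1 siRNA, 8 of 9 stood above, led by HNRNPA1 at 169% (163 to 176), with HNRNPU at 98.2% (91.0 to 106). In the degron library 3 of 8 stood above, HNRNPM at 140% (128 to 154), HNRNPH1 at 124% (120 to 127) and HNRNPL at 117% (107 to 128). HNRNPA2B1 and HNRNPDL stood lowest there, at 63.8% (62.3 to 65.3) and 62.2% (59.2 to 65.3). Over all genes with at least 100 control reads, the medians were 103%, 106% and 102%, and 52.8%, 54.6% and 51.7% of genes stood above 100%.

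These percentages rest on 1 to 7 introns a gene, and the introns listed differ between tables. They also depend on what else the total holds, since 4 epithelial marker genes took 2.03% of the spliced reads after SNW1 siRNA against 5.16% in the control. For HNRNPM the reads are those of the shorter form, which is what the degron library had more of. In bulk RNA, fewer cells with a transcript and less of it per cell cannot be told apart.

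**Figure D5:**
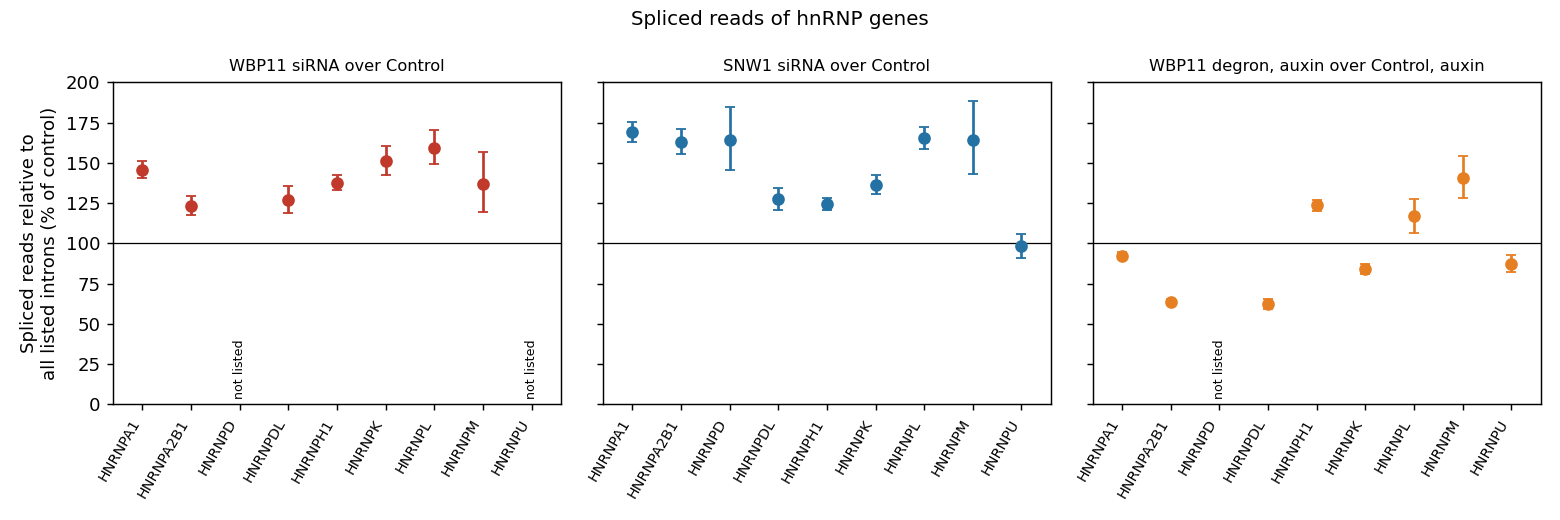
Exactly spliced reads of each hnRNP gene relative to all listed introns, as a percentage of the control, with exact binomial 95% intervals, for WBP11 siRNA, SNW1 siRNA and the WBP11 degron under auxin. All 7 genes lie above 100% after WBP11 siRNA, while 5 of 8 lie below it in the degron library.

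Other genes of the hnRNP family were counted for comparison, from a list of 20 genes of which 15 had 52 listed introns. In this list 1 of 17 introns rose after WBP11 siRNA, 1 of 40 after SNW1 siRNA and 1 of 28 in the degron library, and 0 fell in any. Over all introns tested, 9.07%, 16.6% and 13.8% rose and 1.69%, 0.359% and 1.37% fell. All 3 rises were at introns marked as overlapping an annotated exon. The first was in HNRNPLL, at 69.4% against 57.4% with an interval of the difference from -0.95 to 24.3, and the second was in RBMX, at 29.7% against 17.0% with an interval from -0.35 to 26.8. The third was the 78-base intron 8 of 9 of HNRNPH3, printed above, at 36.2% in the degron library against 3.81% in the control (32.3 points, 30.2 to 34.4). After WBP11 and SNW1 siRNA the same HNRNPH3 intron was at 3.30% and 3.58%, against 1.55% in the control. In the degron library the only rises in either list were thus in HNRNPH1 and HNRNPH3, at introns of 56 and 78 bases. Rises at short introns were common in that library. Among all introns tested, 39.2% of those up to 100 bases rose there, against 8.69% of the longer ones. Of the hnRNP introns up to 100 bases in the main list, 1 of 4 did.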

How the data were processed

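PolyA RNA of 5 DLD-1 libraries was analysed from 3 tables that pair a depleted library with its control. Per the file headers, the authors ran IRFinder on STAR genome alignments to hg38; per the submitters' processing notes, RSEM and bedtools were also used. Tool versions: not given in the sources used here. In these tables the retention ratio is a fraction, used as deposited. It was near intron depth over that depth plus spliced reads, but differed from it by more than 0.1 points in 17.9% to 27.1% of the introns listed per library, and the cause was not tested; the depth is a coverage signal as deposited, and the spliced reads are a deposited count, neither scaled between libraries. The ratio uses no library size, yet a read from an exon or another gene over the intron would raise it. The deposited unadjusted p-values and the share of covered bases, a fraction per the file headers, took no part in any comparison. The control of both RNAi tables was 1 library, with identical values at 13412 of 13412 shared introns.

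The members and lists were chosen with earlier results of these data known. Introns described singly are those past 10 points, those marked as overlapping exons, and the 1 with the largest difference in each gene, with neighbours added after their values were seen. Wilson intervals for ratios, Newcombe intervals for differences (differences of differences combine these), and exact binomial intervals for spliced reads were computed at 95% and cover counting error only, since PCR reads are not independent molecules. The number of observations was depth plus spliced reads. With 1 library per group no test between conditions was possible. The calls were tested on simulated data. These were drawn from the counting model that the intervals assume, so they cannot show spread between replicates or uneven coverage. Spliced reads were divided by the sum over all listed introns of the table, a part of the library that is not its depth. Intron numbers came from GENCODE release 29, in which all 34560 introns matched exactly; coordinates count from 1. Alternatives were other differences and depth minimums, intervals apart from 0, exactly spliced reads, centring, means per gene, ratios rebuilt from depth and spliced reads (added after seeing the data), and introns without warnings or known exons. Python 3.11.15, pandas 2.3.3, NumPy 2.4.6, SciPy 1.17.1 and matplotlib 3.10.9 were used.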

Additional observations from a re-analysis of the deposited data

Results flagged for a closer look

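At 6 hnRNP introns, comparisons with separate control libraries pointed in opposite directions, each with a counting interval apart from 0. With 1 library per group, the difference between conditions was not tested beyond counting error. At HNRNPA1 intron 10 the SNW1 siRNA difference exceeded the WBP11 degron difference by 46.4 points (33.2 to 58.9). At HNRNPM intron 6 it exceeded it by 21.3 points (15.3 to 27.2), and at HNRNPH1 intron 2 by 12.4 points (9.19 to 15.7). At HNRNPH1 intron 8 it exceeded it by 1.58 points (0.55 to 2.68). At HNRNPA2B1 intron 10 the WBP11 degron difference exceeded the WBP11 siRNA difference by 5.27 points (3.91 to 6.68), and the SNW1 siRNA difference minus the degron difference was -4.21 points (-5.65 to -2.83). At HNRNPA1 intron 9 the WBP11 degron difference exceeded the WBP11 siRNA difference by 2.45 points (1.83 to 3.10). Warnings of uneven coverage were attached to HNRNPA1 intron 9 in every depleted library and to HNRNPH1 intron 8 in both WBP11 libraries. The listing rule also fixed the lower direction of HNRNPH1 intron 8 in the degron library and of HNRNPA1 intron 9 after WBP11 siRNA. Each was below 1% there and was listed only because its control reached 1%. The opposite directions at these introns are thus partly set by the listing.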

How the results depend on the processing

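No paired analysis was possible because each group had 1 library. With a difference of 20 points, 0 hnRNP introns rose after WBP11 siRNA, 1 rose after SNW1 siRNA and 1 fell in the degron library. With 5 points, 1 fell after WBP11 siRNA and 4 rose after SNW1 siRNA. Without introns that overlap known exons, 1 rose after SNW1 siRNA and 0 fell in the degron library. Without introns that carried a warning, 1 rose after SNW1 siRNA, 1 fell in the degron library, and the medians after WBP11 and SNW1 siRNA were -0.0405 points over 6 introns and 1.87 points over 8. Rebuilt from the deposited depth and either the exactly spliced or the largest number of spliced reads, the difference at HNRNPA2B1 intron 10 in the degron pair was 3.83 points, since its deposited ratio does not match its depth and reads. The rebuilt ratio with the largest number, chosen after seeing the data, left every count of rises and falls of hnRNP introns as it was. Without known-exon introns, the spliced reads of HNRNPA1 in that pair were 95.1%. The cause was otherwise not tested. Of 170 values recomputed, 157 moved by no more than 1.5 times for a count or by no more than the counting interval for other values, and no called difference changed direction. Depth limits HNRNPA1 intron 10 most, with 138 reads and depth units in the control.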
